A study of Mus musculus with 12 samples.

Results

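Cultured neonatal mouse cardiomyocytes depleted of lincRNA-p21 were compared with and without phenylephrine (PE), an alpha1-adrenergic agonist used to induce hypertrophic growth. The comparison holds 6 of the 12 libraries of the study, chosen by their labels. The cells of 3 libraries received PE for 24 hours together with a GapmeR against lincRNA-p21, and the cells of the other 3 received phosphate-buffered saline (PBS) with the same GapmeR. A GapmeR is an antisense oligonucleotide that makes RNase H cut its target RNA. All 6 libraries of the comparison therefore share the knockdown, and they are called knockdown libraries here. The remaining 6 libraries, called control, had a negative-control GapmeR, 3 with PE and 3 with PBS, and are set beside the knockdown libraries only to test where the responses differed. The sources used here do not give the doses of PE and GapmeR, the strain and the exact age of the neonatal mice or the sequences of the GapmeRs. Polyadenylated RNA was sequenced, and values are normalised read counts, which are reads per gene divided by 1 size factor per library. The table lists 55416 genes, and the test took in 21799, those averaging 1 or more over the 12 libraries. The labels do not say that libraries came from separate cultures or animals, so a p-value weighs a difference against library spread alone, which may be technical.

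The alpha1-adrenergic receptor signals through the G protein Gq to phospholipase C beta, which releases calcium from internal stores and activates protein kinase C. Calcineurin, NFAT and MEF2 on one branch and the mitogen-activated protein kinases on another then switch on immediate early transcription factors and the fetal gene program. Cardiomyocytes respond by making more ribosomes and contractile protein, and they secrete peptides and growth factors that act on neighbouring cells. LincRNA-p21, the product of Trp53cor1, is a noncoding transcript that p53 induces, and its gene lies beside Cdkn1a, the gene of the cell cycle inhibitor p21.

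Trp53cor1 (ENSMUSG00000085912.3) was transcribed from GRCm38 chromosome 17 from 29057430 to 29079179 on the minus strand and was low in both knockdown groups. It had 8.56, 9.97 and 8.93 normalised reads in PE knockdown libraries 1 to 3 and 12.7, 22.6 and 10.1 in PBS knockdown libraries 1 to 3, against 56.02, 34.00 and 34.7 in PE control and 59.8, 70.6 and 63.2 in PBS control libraries. Every knockdown library lay below every control library. Within the knockdown cells its change with PE was -0.59 ± 0.30 on the log2 scale and was not called (limma, adjusted p = 0.15). Each error of a log2 change is the standard error of limma, with 3 libraries per group throughout. Reads of the overlapping antisense gene AC167363.1 cannot be told apart from those of Trp53cor1, because the sources used here do not say whether strand was used in counting.

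The recovered reads ran from 21325485 to 22139681 per library over the whole study. Mitochondrially encoded genes took 6.55% to 10.04% of the reads in PE knockdown and 4.33% to 7.55% in PBS knockdown libraries. PE knockdown replicate 1, PBS knockdown replicate 2 and PBS control replicate 2 each lay farthest in their own group from the mean of its other libraries, although PBS knockdown replicate 1 lay farther from its group than PBS control replicate 2 did. Counts were also made without these 3 libraries, which are called distant here and were chosen from an earlier analysis. All 10 cardiomyocyte markers were present in every group, and their summed value was 990932 to 1069678 in PE knockdown against 625241 to 683691 in PBS knockdown libraries. Myh6 and Actc1 made up most of these sums, and of the 10 markers 4 rose and 1 fell (median 0.22), or 3 and 2 after rescaling to equal totals. Fibroblast, endothelial, leukocyte, smooth muscle and epicardial markers were detected too, and fewer cells of a type and less RNA per cell cannot be told apart in these bulk samples.

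Most genes of the hypertrophic program rose with PE in the knockdown cells, but the fetal myosin gene Myh7 fell. Nppb and Acta1 rose most among the 8 genes chosen as readouts, and Nppa, Rcan1 and Cdkn1a rose less. Nppb (ENSMUSG00000029019.9, chromosome 4 from 147985788 to 147987205 on the plus strand), which encodes the natriuretic peptide BNP, had 13453, 13145 and 13254 normalised reads in PE knockdown libraries, against 2335, 1781 and 1855 in PBS knockdown libraries. Each PE library was far above each PBS library, and the log2 change was 2.75 ± 0.13 (limma, adjusted p = 2.1e-11). Acta1 (ENSMUSG00000031972.6, chromosome 8 from 123891769 to 123894751 on the minus strand), the skeletal alpha-actin expressed in the fetal heart, had 716, 820.4 and 847 in PE knockdown libraries, against 172, 159 and 166 in PBS knockdown libraries. It rose by 2.25 ± 0.11 (limma, adjusted p = 2.6e-11), again with no overlap between the groups. Nppa, the gene of the atrial natriuretic peptide, had 19250.3, 18453 and 18915 in PE knockdown and 13079.5, 10849.6 and 12117 in PBS knockdown libraries, a rise of 0.66 ± 0.11 (limma, adjusted p = 1.2e-04).

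The myosin heavy chain genes moved in opposite directions. Myh7 (ENSMUSG00000053093.17, chromosome 14 from 54970684 to 54994626 on the minus strand), the beta isoform of the fetal ventricle in mice, had 3093, 2557 and 2647 normalised reads in PE knockdown libraries, against 6067, 7514 and 6130.3 in PBS knockdown libraries. It fell by 1.25 ± 0.12 on the log2 scale (limma, adjusted p = 2.1e-07), and no PE library reached the lowest PBS library. The locus also holds the noncoding Mhrt on the other strand, whose level was below that of Myh7. Myh6, the alpha isoform of the adult mouse heart, had 456573, 393796 and 388701 in PE knockdown and 236119.5, 286734 and 235863 in PBS knockdown libraries. Its rise of 0.71 ± 0.21 (limma, adjusted p = 0.013) was lost without PBS knockdown replicate 3 (0.66, limma adjusted p = 0.053) and with no filter on low values (limma, adjusted p = 0.11). Rcan1, a calcineurin inhibitor that is itself a target of calcineurin and NFAT, rose by 0.83 ± 0.10 (limma, adjusted p = 2.1e-06). Cdkn1a rose by 0.56 ± 0.12 (limma, adjusted p = 0.0017) while the lincRNA transcribed beside it stayed between 8.56 and 22.6 normalised reads in the knockdown libraries.

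**Figure D1:**
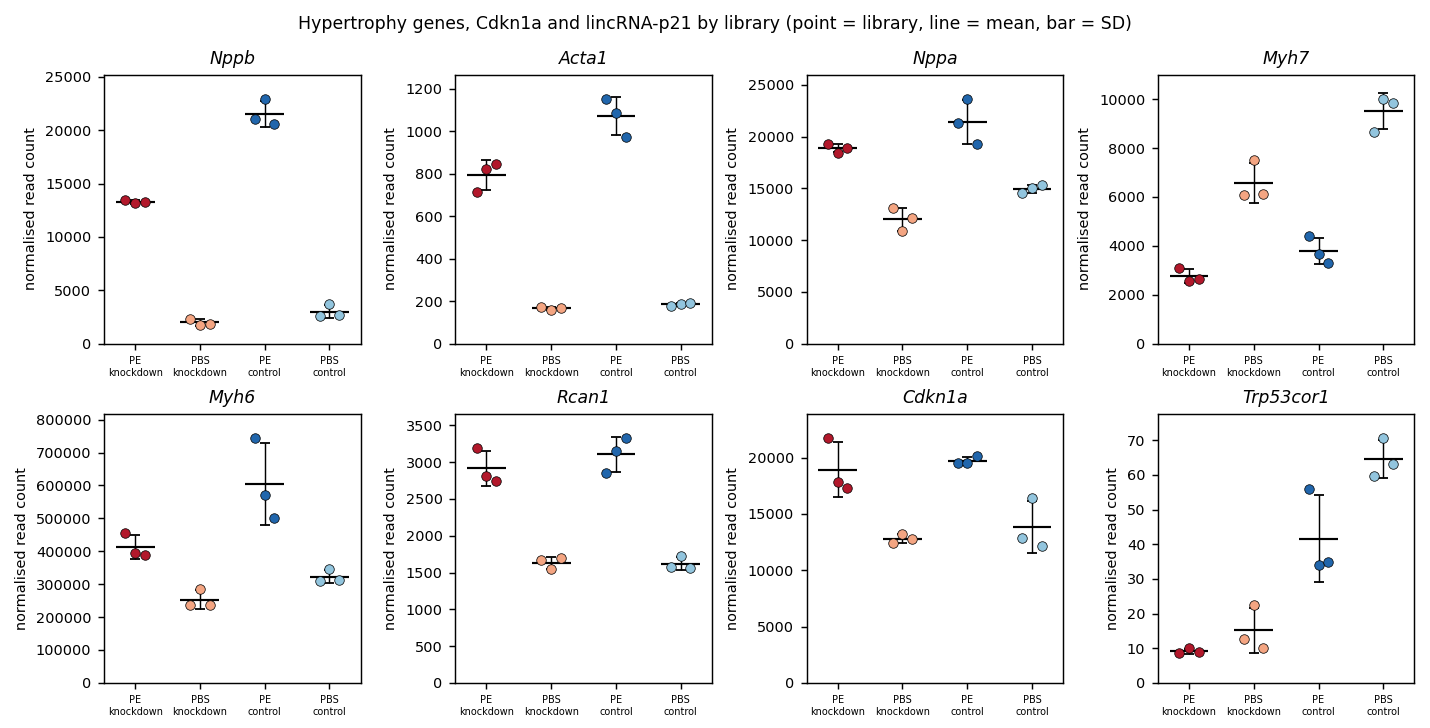
Normalised read count (y axis, linear from 0) of 8 readout genes in the 12 libraries, with PE knockdown, PBS knockdown, PE control and PBS control from left to right. Points are libraries, lines are means of 3 and bars are SD. Nppb and Acta1 are several times higher with PE under either GapmeR, Myh7 is lower, and Trp53cor1 is lowest in the knockdown libraries.

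Of 17 tested genes of the wider hypertrophic and fetal program, 12 rose and 2 fell, with a median log2 change of 0.83. Over all 21799 genes, limma called 13.4% higher and 14.0% lower, and the median was 0.0048. Ccn2, a secreted target of mechanical and TGF-beta signalling, had 10538, 11321 and 12034 in PE knockdown and 3356, 3333 and 3001 in PBS knockdown libraries and rose by 1.81 ± 0.09 (limma, adjusted p = 6.0e-11). Xirp2, an actin-binding protein of the intercalated disc, rose by 1.80 ± 0.18 (limma, adjusted p = 4.8e-07). The stress-responsive Ankrd1 rose by 1.12, the cytokine gene Gdf15 by 1.15 and the non-muscle actinin gene Actn1 by 1.21. Besides Myh7, the slow skeletal troponin gene Tnni1 was the other member that fell, by 0.68, and Xirp1 at -0.12, Myl4 at -0.29 and Flnc at 0.01 were not called.

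The promoters of the 2 genes that rose most are shown because both are classical targets of hypertrophic signalling. The stretches run from 250 bases before to 50 bases after the RefSeq start on GRCm38.p6, 5′ to 3′ along the gene. Capitals mark matches to an M-CAT element (CATTCC, the letters bound by TEAD factors) or to a CArG box, the element bound by serum response factor, on either strand. The Nppb stretch is chr4:147985650-147985949 on the plus strand, and its RefSeq start lies 112 bases after the start of the GENCODE gene. The Acta1 stretch is chr8:123894726-123895025 on the minus strand.
Nppb: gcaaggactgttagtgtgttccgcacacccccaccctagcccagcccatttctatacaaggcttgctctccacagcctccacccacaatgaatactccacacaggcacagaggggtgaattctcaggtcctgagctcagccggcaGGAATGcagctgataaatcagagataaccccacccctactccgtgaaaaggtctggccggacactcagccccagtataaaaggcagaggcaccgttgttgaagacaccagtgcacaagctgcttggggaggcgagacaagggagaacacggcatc
Acta1: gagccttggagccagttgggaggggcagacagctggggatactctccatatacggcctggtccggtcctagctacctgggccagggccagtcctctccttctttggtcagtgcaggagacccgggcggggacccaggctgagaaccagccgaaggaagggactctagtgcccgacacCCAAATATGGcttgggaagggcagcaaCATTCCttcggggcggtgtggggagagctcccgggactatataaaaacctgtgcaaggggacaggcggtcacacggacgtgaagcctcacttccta
The Nppb stretch held 1 M-CAT match, which begins 105 bases before the RefSeq start on the opposite strand, inside the GENCODE gene. In the Acta1 stretch a CArG box begins 73 bases and an M-CAT match 46 bases before the start. Among all 32851 RefSeq promoters of this length, 14.7% held the M-CAT letters and 1.63% a CArG box, which overlapped no M-CAT match in the Acta1 stretch. Of the 15 hypertrophy genes with a promoter in the table, 6 held the M-CAT letters and 2 a CArG box. These are matches of letters and not sites shown to be bound.

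Across the transcriptome, 5967 of 21799 genes (27.4%) were called, 2918 higher and 3049 lower with PE (limma, Benjamini-Hochberg threshold of 0.05). At least a 2-fold change was seen in 872 of the genes called higher and 902 of those called lower. Rescaling every library to the same total moved the share of lower calls to 69.3%, against 51.1% as reported, and the median log2 change of genes averaging 50 or more to -0.15, against -0.0037. Gene groups are therefore described by changes relative to the other genes of these libraries. The counts of each list are to be read beside the 13.4% of all tested genes called higher and the 14.0% called lower.

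Ccl6 (ENSMUSG00000018927.4, chromosome 11 from 83587882 to 83593087 on the minus strand), a CC chemokine gene of myeloid cells, rose most among genes averaging 1 or more in log2 CPM over the knockdown libraries, with no overlap between PE and PBS. It had 387, 349 and 324 normalised reads in PE knockdown libraries, against 3.63, 2.71 and 11.9 in PBS knockdown libraries, a log2 change of 5.87 ± 0.34 (limma, adjusted p = 2.6e-10). Ptgs2, the inducible prostaglandin synthase, had 628, 659.9 and 666 in PE knockdown and 66.2, 58.7 and 66.9 in PBS knockdown libraries and rose by 3.33 ± 0.13 (limma, adjusted p = 2.3e-12). Rgs16, which speeds the shut-off of G protein alpha subunits, had 586, 522 and 517 in PE knockdown and 48.1, 46.1 and 57.8 in PBS knockdown libraries and rose by 3.40 ± 0.21 (limma, adjusted p = 4.9e-10). The other genes of the 12 highest included the late cornified envelope gene Lce1g (4.12), the collagenase Mmp13 (3.89), the protease inhibitor Serpinb2 (3.65), the BMP antagonist Grem1 (3.63), the neuropeptide precursor Vgf (3.57), the granulocyte growth factor Csf3 (3.08) and the interferon-induced Rsad2 (2.98) and Cxcl10 (2.95).

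Lrrc17 (ENSMUSG00000039883.6, chromosome 5 from 21543559 to 21575904 on the plus strand), a secreted leucine-rich repeat protein, fell most, with 3.21, 4.98 and 3.97 normalised reads in PE knockdown and 131, 104 and 120.1 in PBS knockdown libraries. Its log2 change was -4.57 ± 0.29 (limma, adjusted p = 1.2e-09). Ptn, the heparin-binding growth factor pleiotrophin, had 88.8, 72.8 and 66.5 in PE knockdown and 1287, 888 and 1261 in PBS knockdown libraries and fell by 3.89 ± 0.16 (limma, adjusted p = 4.8e-12). Agt, the angiotensin precursor, had 13.9, 2.99 and 4.96 in PE knockdown and 102, 132 and 88.9 in PBS knockdown libraries, a change of -3.92 ± 0.34 (limma, adjusted p = 6.1e-08). For all 3 genes each PE library was well under each PBS library. The rest of the 12 lowest were Olfml1 (-3.76), the calcium channel subunit gene Cacng6 (-3.74), the TGF-beta family ligand Gdf10 (-3.69), the lipid transporter Abca8a (-3.58), the aldehyde dehydrogenase Aldh3a1 (-3.48), the globin Cygb (-3.26), Islr (-3.04), the proteoglycan Fmod (-3.03) and the matrix protein gene Abi3bp (-2.96). All 24 genes were chosen for library values that do not overlap between PE and PBS, a pattern that 19.6% of all tested genes showed in the higher and 19.1% in the lower direction.

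**Figure D2:**
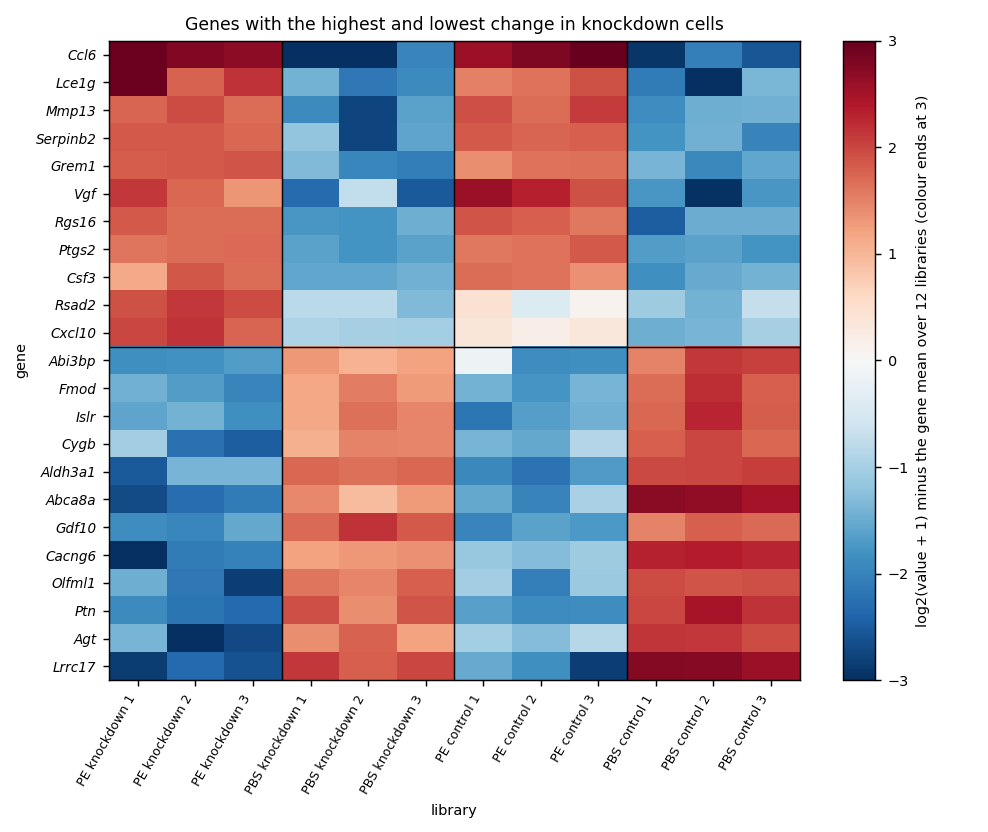
Heat map of 11 of the 12 highest genes (top) and the 12 lowest genes (bottom) of the PE response in knockdown cells across all 12 libraries (x axis, knockdown PE then PBS, control PE then PBS). Colour is log2(value + 1) minus the mean of the gene over 12 libraries, and colours end at 3 in either direction. Both PE groups share most of the red block at the top and the blue block at the bottom. Rsad2 and Cxcl10 are an exception, red in PE knockdown and pale in PE control libraries.

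At the level of the receptor and its immediate relays, more genes fell than rose. Of 19 genes of adrenergic receptors and Gq signalling, 4 rose and 7 fell (median -0.13). Among receptors, Adra1a at 0.28, Adra1b at -0.03 and Adrb1 at 0.13 were not called, and Adra1d fell by 1.02 ± 0.20 (limma, adjusted p = 7.4e-04). The protein kinase C genes Prkca (-0.58), Prkcd (-0.46) and Prkce (-0.39) and the protein kinase D gene Prkd1 (-0.91) all fell. The regulators of G protein signalling split, with Rgs16 and Rgs2 higher and Rgs4 lower. Rgs2 had 178, 187 and 168 in PE knockdown and 87.04, 56.9 and 75.2 in PBS knockdown libraries and rose by 1.29 ± 0.17 (limma, adjusted p = 1.3e-05), while Rgs4 fell by 1.28 ± 0.33 (limma, adjusted p = 0.0063). The receptor kinase gene Grk5 rose by 0.85.

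Of 19 genes of calcineurin, NFAT and MEF2, 2 rose and 7 fell, and the number that fell was 4 without PE knockdown replicate 2 or 3. The risers were Rcan1 and Myoz2, a Z-disc protein that binds calcineurin, which rose by 0.91 ± 0.11 (limma, adjusted p = 5.6e-06). The class IIa histone deacetylase genes Hdac9 and Hdac5, repressors of MEF2, fell by 1.66 ± 0.12 and 0.96 ± 0.13 (limma, adjusted p = 3.9e-09 and 1.5e-05). Hdac9 had 179, 146 and 134 in PE knockdown libraries, against 471, 488 and 482 in PBS knockdown libraries. Nfatc4 fell by 1.57 ± 0.15 (limma, adjusted p = 1.7e-07), and the calcineurin catalytic subunit genes Ppp3ca (0.25) and Ppp3cb (-0.20) were not called.

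The immediate early transcription factors were higher after 24 hours of PE for the most part. Of 20 tested, 14 rose and none fell (median 0.73). Fosl1, an AP-1 subunit, had 695, 535 and 461 in PE knockdown and 76.2, 129 and 90.8 in PBS knockdown libraries and rose by 2.52 ± 0.20 (limma, adjusted p = 1.7e-08), but it overlaps Ccdc85b on the other strand, which was at least as high. Fosb rose by 1.76 ± 0.32, Nr4a3 by 1.76 ± 0.28 and Myc by 1.40 ± 0.15 (limma, adjusted p = 2.8e-04, 7.7e-05 and 6.7e-07). Fos itself rose by 1.15, Jun by 0.93 and Egr1 by 0.82, whereas Egr2 (0.24), Egr3 (0.31), Nr4a2 (-0.18), Jund (0.30), Klf4 (0.29) and Srf (0.28) were not called. The inhibitors that mitogen-activated protein kinases induce against themselves moved the same way. Of 16 MAPK feedback inhibitors 10 rose and 1, Spry1, fell (median 0.54). Errfi1, an inhibitor of the EGF receptor, had 2033, 1593 and 1628 in PE knockdown and 318, 367 and 314 in PBS knockdown libraries and rose by 2.38 ± 0.11 (limma, adjusted p = 2.5e-11). Spry4 rose by 1.28 ± 0.10 and the phosphatase genes Dusp2 and Dusp8 by 1.25 ± 0.29 and 1.17 ± 0.11 (limma, adjusted p = 1.7e-08, 0.0029 and 1.8e-07).

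Growth factor genes moved in both directions. Of 21 genes of the EGF, PDGF, FGF and VEGF families, 9 rose and 4 fell, against 13.4% and 14.0% of all tested genes. The median of 0.13 was -0.01 with values rescaled to the same total. Hbegf, a ligand of the EGF receptor shed from the cell surface, had 1906, 1847 and 1793 in PE knockdown and 305, 223 and 299.8 in PBS knockdown libraries and rose by 2.75 ± 0.12 (limma, adjusted p = 1.1e-11). The EGF family ligands Areg, at 41.7, 24.9 and 39.7 in PE knockdown and 8.16, 3.62 and 10.1 in PBS knockdown libraries, and Ereg rose as well, by 2.20 and 1.41. Pgf, placental growth factor, rose by 1.90 ± 0.18 and Pdgfb by 1.78 ± 0.13 (limma, adjusted p = 1.9e-07 and 8.4e-09). The members that fell were Vegfb (-0.49), Vegfd (-1.49), Fgf9 (-0.82) and the cardiomyocyte factor Fgf16 (-1.09).

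Genes of vasoactive peptides and their receptors also moved in both directions. Of 19 genes 7 rose and 5 fell, against 13.4% and 14.0% of all tested genes. With values rescaled to the same total 6 rose and 8 fell. On the rising side were the endothelin gene Edn1 (1.32), the apelin gene Apln (1.34), adrenomedullin Adm (0.76) and the natriuretic peptide clearance receptor Npr3 (0.80). Of the angiotensin genes, Agt (-3.92), the receptor gene Agtr1a (-1.67 ± 0.13, limma adjusted p = 2.2e-08) and Ace (-0.85) fell. Corin, the protease that activates atrial natriuretic peptide, had 391, 449 and 443 in PE knockdown and 1116, 1325 and 1144 in PBS knockdown libraries and fell by 1.48 ± 0.10 (limma, adjusted p = 2.5e-09). Ramp1, a subunit of the calcitonin-gene-related peptide receptor, fell by 1.57 ± 0.19 (limma, adjusted p = 3.4e-06).

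Of 21 genes of TGF-beta and BMP signalling, 8 rose and 4 fell, against 13.4% and 14.0% of all tested genes. With values rescaled to the same total 6 rose and 6 fell, and 11 rose without PBS knockdown replicate 2 or without the 3 distant libraries. Bmp2 had 1336, 1378 and 1312 in PE knockdown and 171, 215 and 189 in PBS knockdown libraries, a rise of 2.81 ± 0.11 (limma, adjusted p = 2.9e-12). Its secreted antagonist Grem1 had 269.7, 277 and 284 in PE knockdown and 29.9, 18.98 and 17.4 in PBS knockdown libraries and rose by 3.63 ± 0.20 (limma, adjusted p = 1.9e-10). Ligand and antagonist were both higher in all 3 PE libraries. The activin subunit gene Inhba rose by 1.90 ± 0.11 (limma, adjusted p = 3.6e-10), its antagonist Fst by 1.07, Tgfb2 by 0.96 and the cardiac Bmp10 by 1.65. Gdf10 fell by 3.69 ± 0.18 (limma, adjusted p = 3.5e-11), and of the BMP targets Id3 (-0.61) and Smad6 (-0.42) fell, Id2 (0.43) rose and Id1 (-0.34) was not called.

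Inflammatory genes were higher with PE almost without exception in the list. Of 18 NF-kB targets and cytokines 16 rose and none fell (median 0.99), and Nfkb1 (-0.13) and Relb (0.21) were not called. Il6 was scarce, with 66.4, 63.8 and 57.6 in PE knockdown and 9.07, 1.81 and 0.917 in PBS knockdown libraries, and its log2 change was 4.07 ± 0.43 (limma, adjusted p = 7.8e-07). The neutrophil chemokine genes Cxcl5 and Cxcl1 rose by 1.91 ± 0.13 and 1.90 ± 0.11 (limma, adjusted p = 3.5e-09 and 4.3e-10). Lif rose by 1.82, Il11 by 1.53 and Il1rl1, the receptor of the alarmin IL-33, by 1.89. Leukocyte markers moved with this group. Of 15 markers 8 rose and none fell, and their summed value was 3760.4 to 4479.7 in PE knockdown against 2960.2 to 3095 in PBS knockdown libraries. C1qa, a complement subunit gene of macrophages, had 55.7, 46.8 and 58.6 in PE knockdown and 12.7, 4.52 and 7.33 in PBS knockdown libraries and rose by 2.67 ± 0.34 (limma, adjusted p = 8.7e-06). C1qb rose by 2.30 ± 0.27, C1qc by 2.10 ± 0.26 and the integrin gene Itgam by 1.70 ± 0.25 (limma, adjusted p = 3.0e-06, 4.2e-06 and 4.5e-05). The pan-leukocyte gene Ptprc at 0.09 and the macrophage gene Cd68 at 0.16 were not called, and no tested marker of the list was at 0 in both groups. The part of leukocytes in the cytokine changes was not tested.

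Matrix genes moved in both directions, with collagens and leucine-rich proteoglycans mostly lower and matricellular proteins mostly higher. Of 18 collagen and lysyl oxidase genes 6 rose and 11 fell (median -0.70). Col3a1 had 4201, 4392 and 4504 in PE knockdown libraries, against 19158, 21242 and 18832 in PBS knockdown libraries, a log2 change of -2.18 ± 0.10 (limma, adjusted p = 1.6e-11). Col14a1, Col15a1 and Col6a3 fell by 2.07 ± 0.10, 1.92 ± 0.12 and 1.47 ± 0.14 (limma, adjusted p = 2.1e-11, 1.3e-09 and 2.6e-07). The basement membrane genes Col4a1 and Col4a2 went the other way, at 1.06 and 0.98, together with Col12a1 (0.79), Col8a1 (0.59), Lox (0.73) and Loxl2 (0.32). Of 14 tested small leucine-rich proteoglycans 1 rose and 9 fell (median -0.92). Lum, which organises collagen fibrils, had 213, 232 and 239 in PE knockdown and 1309, 969 and 1372 in PBS knockdown libraries and fell by 2.40 ± 0.13 (limma, adjusted p = 8.3e-11). Fmod fell by 3.03 ± 0.17 and Aspn by 2.95 ± 0.26 (limma, adjusted p = 1.6e-10 and 7.1e-08). Epyc, at 1.07, 0 and 0 in PE knockdown and 8.16, 1.81 and 15.6 in PBS knockdown libraries, lost its call without PBS knockdown replicate 3 (limma, adjusted p = 0.068), Tsku rose by 1.13, and Kera was too low to be tested.

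Of 22 matricellular proteins and matrix proteases 14 rose and 4 fell (median 1.17). Thbs1, an activator of latent TGF-beta, had 23088, 21930.3 and 22128 in PE knockdown and 4593, 5565 and 4852 in PBS knockdown libraries and rose by 2.17 ± 0.10 (limma, adjusted p = 2.6e-11). Each PE library was far above each PBS library. Serpinb2 rose by 3.65 ± 0.29 (limma, adjusted p = 2.3e-08), the urokinase receptor gene Plaur by 2.16 and Tnc by 1.91. The stromelysin gene Mmp10 had 37.5, 66.8 and 38.7 in PE knockdown and 0.907, 0.904 and 0.917 in PBS knockdown libraries, so its log2 change of 4.62 ± 0.43 (limma, adjusted p = 1.4e-07) depends on the pseudocount of 1. Mmp2 (-1.15), Thbs2 (-1.53), Plat (-0.86) and Ccn3 (-0.86) fell, and Postn (-0.03) and Sparc (0.01) were not called.

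Markers of fibroblasts moved with the collagens. Of 12 tested 1 rose and 10 fell (median -1.05), and their summed value was 37536 to 40967 in PE knockdown against 71130.0 to 85049 in PBS knockdown libraries. Of these 12 markers, Col1a1, Col1a2, Col3a1, Col15a1, Dcn and Lum also stand among the matrix genes above. The fibroblast transcription factor gene Tcf21 had 404, 343 and 351 in PE knockdown and 1008, 1208 and 951 in PBS knockdown libraries and fell by 1.52 ± 0.11 (limma, adjusted p = 6.8e-09), whereas Postn, a marker of activated fibroblasts, was at -0.03. None of the 12 was at 0. The part of fibroblast number in the matrix changes was not tested.

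Of 14 endothelial markers 10 rose and 1, Tek, fell, and Tek lost its call without PBS knockdown replicate 1 or 3 or PE knockdown replicate 2 or 3. Their summed value was 10309 to 12214 in PE knockdown against 6299 to 8525 in PBS knockdown libraries. Emcn, a sialomucin of the endothelial surface, had 1051, 868 and 680.0 in PE knockdown and 219, 189.8 and 226 in PBS knockdown libraries and rose by 2.01 ± 0.15 (limma, adjusted p = 5.7e-09). The junction genes Cdh5 and Pecam1 rose by 1.66 ± 0.13 and 1.29 ± 0.12 and the VEGF receptor gene Flt1 by 1.38 ± 0.11 (limma, adjusted p = 1.2e-08, 1.3e-07 and 1.5e-08). Among 11 markers of smooth muscle and pericytes, 4 rose and 6 fell. Those that rose were the smooth muscle actin-binding gene Cnn1 (2.13 ± 0.13, limma adjusted p = 5.8e-10), the actin gene Acta2 (1.10), Cspg4 (0.78) and Des (0.62), of which Acta2 and Des are also made by cardiomyocytes. The smooth muscle myosin gene Myh11 fell by 1.58 ± 0.18 and the pericyte genes Rgs5 and Kcnj8 by 1.73 ± 0.17 and 1.79 ± 0.35 (limma, adjusted p = 1.5e-06, 3.7e-07 and 5.9e-04). Of 10 epicardial markers 3, the keratin genes Krt8, Krt18 and Krt19, rose and 6 fell. Only 4 fell without PBS knockdown replicate 3 or PE knockdown replicate 1 or 2, and with the 6 knockdown libraries alone. Krt18 had 4829.7, 5718 and 5059.9 in PE knockdown and 799, 726 and 693 in PBS knockdown libraries (log2 change 2.81 ± 0.12, limma adjusted p = 6.1e-12), while the mesothelial Upk3b fell by 1.38 ± 0.09 (limma, adjusted p = 2.6e-09). Among 6 Schwann cell markers 2 fell, Cdh19 (-2.36) and S100b (-1.43), and of 4 tested erythroid markers none was called.

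**Figure D3:**
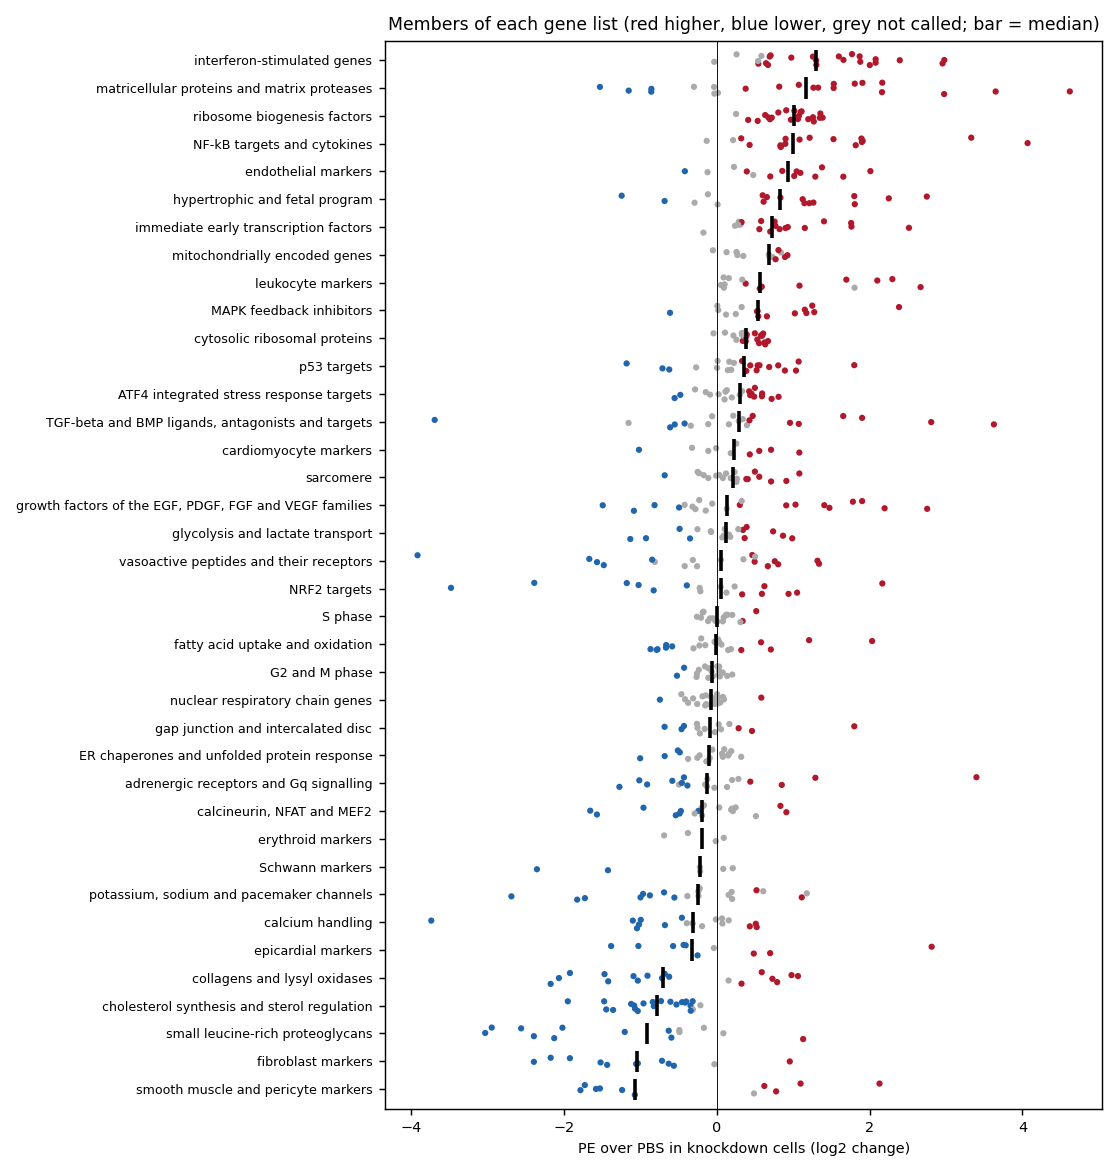
Log2 change of PE over PBS in knockdown cells (x axis) for every tested member of the 38 gene lists (y axis). Points are genes, red where called higher, blue where called lower and grey where not called, and the bar is the median of the list. The medians of the ribosome biogenesis and NF-kB lists lie right of 0 and that of the cholesterol list lies left of it.

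Contractile and electrical genes changed unevenly. Of 20 sarcomere genes 7 rose and 1 fell, 4 rose without PBS knockdown replicate 3, and 4 rose and 4 fell with values rescaled to the same total. Cardiac actin Actc1 had 314468, 339963 and 340612 in PE knockdown and 165059, 154094 and 151472 in PBS knockdown libraries and rose by 1.08 ± 0.17 (limma, adjusted p = 5.7e-05). Troponin C, Tnnc1, rose by 0.56 ± 0.13 (limma, adjusted p = 0.0022), and the myosin-binding protein gene Mybpc3 fell by 0.68 ± 0.15 (limma, adjusted p = 0.0021). The titin gene Ttn (0.03) and the ventricular light chain genes Myl2 (-0.11) and Myl3 (0.08) were not called.

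Of 18 genes of calcium handling 3 rose and 7 fell, or 1 and 11 after rescaling to equal totals. Cacng6, an auxiliary subunit of voltage-gated calcium channels, had 6.42, 14.95 and 15.9 in PE knockdown and 157, 168 and 177 in PBS knockdown libraries and fell by 3.74 ± 0.24 (limma, adjusted p = 1.3e-09). Pln, the inhibitor of the calcium pump of the sarcoplasmic reticulum, had 4405, 5311 and 5592 in PE knockdown and 13245, 6494 and 12666 in PBS knockdown libraries and fell by 1.02 ± 0.19 (limma, adjusted p = 3.9e-04). The pump gene Atp2a2 was higher by 0.51, although 2 of its inhibitors, Pln and Sln (-0.996), were lower. The L-type channel gene Cacna1c fell by 1.05 ± 0.14 and the store protein gene Hrc by 1.10 ± 0.13 (limma, adjusted p = 1.1e-05 and 3.0e-06).

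Of 19 potassium, sodium and pacemaker channel genes 2 rose and 8 fell, and the number that rose was 5 without PBS knockdown replicate 2, 4 without the 3 distant libraries and 1 without PE knockdown replicate 1 or after rescaling to equal totals. Kcnip2, the subunit that sets the transient outward current, had 61.01, 68.8 and 60.6 in PE knockdown and 405, 449 and 389.6 in PBS knockdown libraries and fell by 2.69 ± 0.13 (limma, adjusted p = 2.0e-11). Its channel partners went separate ways, Kcnd2 at -1.83 ± 0.19 and Kcnd3 at 1.11 ± 0.29 (limma, adjusted p = 7.4e-07 and 0.0075). The inward rectifier genes Kcnj3 (-1.73 ± 0.10, limma adjusted p = 3.6e-10), Kcnj2 (-0.97) and Kcnj12 (-0.999) fell. Of 14 intercalated disc genes 3 rose and 3 fell, against 13.4% and 14.0% of all tested genes. With values rescaled to the same total 6 fell. Ctnna3 fell by 0.68 ± 0.11, Dsc2 fell by 0.46 ± 0.10 and Ctnna1 rose by 0.46 ± 0.11 (limma, adjusted p = 9.9e-05, 0.0022 and 0.0038), and the connexin gene Gja1 (-0.26) was not called.

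The machinery for making ribosomes rose almost throughout, while few cell cycle genes were called. Of 21 ribosome biogenesis factors 20 rose and none fell (median 1.02), and the exception was the polymerase gene Polr1a at 0.25. Nop58, a core protein of the box C/D nucleolar particles, had 3543, 3112 and 3156 in PE knockdown and 1595, 921 and 1414 in PBS knockdown libraries and rose by 1.35 ± 0.15 (limma, adjusted p = 1.3e-06). Nucleolin, Ncl, rose by 1.38 ± 0.19, Nop56 by 1.35 ± 0.12 and Wdr43 by 1.27 ± 0.11 (limma, adjusted p = 2.1e-05, 6.5e-08 and 9.6e-08), although Nop56 overlaps Idh3b on the other strand, which was at least as high. Of 22 cytosolic ribosomal proteins 14 rose and none fell (median 0.39), 9 rose with values rescaled to the same total and all 22 without the 3 distant libraries. Rps2 rose by 0.67 ± 0.14, Rpl4 by 0.63 ± 0.11, Rpl5 by 0.63 ± 0.13 and Rps6 by 0.61 ± 0.10 (limma, adjusted p = 0.0016, 2.3e-04, 0.0011 and 1.2e-04). These genes have many processed pseudogenes, so counting may have split their reads.

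Of 17 S phase genes 2 rose and none fell, and of 20 G2 and M phase genes none rose and 2 fell. After rescaling to equal totals none of the S phase genes rose and 3 fell, and 4 of the G2 and M phase genes fell. Both S phase calls were small, Tyms at 0.52 ± 0.13 and Rrm2 at 0.34 ± 0.09 (limma, adjusted p = 0.0059 and 0.011). Rrm2 was not called without PE knockdown replicate 3 (limma, adjusted p = 0.076). Ccnb2 fell by 0.52 ± 0.13 (limma, adjusted p = 0.0044). Cdc20 fell by 0.43 ± 0.13 (limma, adjusted p = 0.019) but was at -0.28 without PE knockdown replicate 1 (limma, adjusted p = 0.12), and it overlaps Elovl1, which was at least as high. Without PBS knockdown replicate 2, 4 of the G2 and M phase genes fell. The proliferation marker Mki67 was at 0.04, Top2a at -0.07 and Pcna at 0.01, none of them called.

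Targets of p53 were tested because lincRNA-p21 is one of them. Of 22 listed, 12 rose and 3 fell (median 0.36). The polo-like kinase gene Plk2 had 6911, 6966 and 6799 in PE knockdown and 2196, 1823 and 1938 in PBS knockdown libraries and rose by 1.80 ± 0.09 (limma, adjusted p = 5.3e-11). Mdm2, the ubiquitin ligase of p53, rose by 1.07 ± 0.09 and Plk3 by 1.04 ± 0.15 (limma, adjusted p = 6.9e-08 and 2.6e-05). The antioxidant sestrin gene Sesn1 fell by 1.18 ± 0.11 (limma, adjusted p = 1.2e-07), with Ddit4 (-0.71) and Trp53inp1 (-0.62) lower as well. Bbc3 (-0.27), Ccng1 (0.19), Zmat3 (0.16) and Phlda3 (0.01), all well-known p53 targets, were not called.

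RNA of cholesterol synthesis genes was lower along almost the whole pathway. Of 22 genes 20 fell and none rose (median -0.78). Insig1, which retains the sterol-sensing complex in the endoplasmic reticulum and is itself a sterol-regulated target, had 1721, 1927 and 2088 in PE knockdown and 7236, 7695 and 7192 in PBS knockdown libraries and fell by 1.95 ± 0.10 (limma, adjusted p = 4.5e-11). The log2 change was -1.48 ± 0.10 for the mevalonate decarboxylase gene Mvd, -1.45 ± 0.12 for the last-step enzyme gene Dhcr7 and -1.36 ± 0.16 for the sterol reductase gene Tm7sf2 (limma, adjusted p = 3.3e-09, 3.6e-08 and 2.4e-06). Tm7sf2 overlaps Vps51, which was at least as high. Sc5d, a sterol desaturase gene, was at -0.31 without a call.

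Genes of sugar and fat metabolism moved in both directions, and over all tested genes 13.4% were called higher and 14.0% lower. Of 20 genes of glycolysis and lactate transport 6 rose and 4 fell. With values rescaled to the same total 4 rose and 5 fell, and without the 3 distant libraries 9 rose and 3 fell. Hexokinase 2, Hk2, rose by 0.99 ± 0.09 and the regulator Pfkfb3 by 0.87 ± 0.10 (limma, adjusted p = 1.1e-07 and 3.7e-06). The insulin-responsive glucose transporter gene Slc2a4 had 698, 785 and 726 in PE knockdown and 1560.4, 1731 and 1558 in PBS knockdown libraries and fell by 1.13 ± 0.09, and the muscle phosphofructokinase gene Pfkm fell by 0.93 ± 0.14 (limma, adjusted p = 1.7e-08 and 5.4e-05). Of 22 genes of fatty acid uptake and oxidation 5 rose and 6 fell. The number that rose was 2 without PBS knockdown replicate 3 or PE knockdown replicate 2, and 3 without PBS control replicate 3, PE control replicate 2 or PE knockdown replicate 1 or 3, and after rescaling to equal totals 2 rose and 8 fell. Angptl4, an inhibitor of lipoprotein lipase, had 3818, 3922 and 3816 in PE knockdown and 950.2, 1043 and 839.7 in PBS knockdown libraries and rose by 2.03 ± 0.10 (limma, adjusted p = 2.1e-11). Pdk4 rose by 1.21 ± 0.09, and the nuclear receptor gene Ppara and the transporter gene Slc27a1 fell by 0.87 ± 0.17 and 0.79 ± 0.13 (limma, adjusted p = 5.1e-09, 7.9e-04 and 8.1e-05).

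Of 23 nuclear respiratory chain genes 1, Cycs, rose and 1, Cox8b, fell (0.58 ± 0.14 and -0.75 ± 0.11, limma adjusted p = 0.0029 and 2.5e-05). The number that fell was 6 after rescaling to equal totals, 3 without the 3 distant libraries, 4 without PBS knockdown replicate 2, 3 without PE knockdown replicate 3, and 2 without PBS control replicate 2 or PE knockdown replicate 1 or 2. Of 13 mitochondrially encoded genes 4 rose, mt-Atp6, mt-Nd2, mt-Nd6 and mt-Cytb, by 0.92, 0.89, 0.81 and 0.77 (limma, adjusted p = 0.015, 0.022, 0.026 and 0.025). These calls rest on single libraries, the values of mt-Nd6 overlap between PE and PBS, and mt-Atp6 and mt-Nd6 overlap mt-Co3 and mt-Nd5, which were at least as high. None of the 13 was called without PBS knockdown replicate 2, the library with the lowest mitochondrial share, without PE knockdown replicate 1 or without the 3 distant libraries, and 7 were called without PBS knockdown replicate 3 or PE knockdown replicate 3.

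Oxidative stress genes were split. Of 17 NRF2 targets 6 rose and 6 fell. Hmox1, heme oxygenase 1, had 10217, 10173 and 9198 in PE knockdown and 2149.7, 2475 and 1985 in PBS knockdown libraries and rose by 2.17 ± 0.10 (limma, adjusted p = 1.6e-11). Aldh3a1 (-3.48) and the glutathione transferase genes Gsta3 and Gstm1 fell, the transferases by 2.39 ± 0.31 and 1.18 ± 0.11 (limma, adjusted p = 7.8e-06 and 1.5e-07). Reads of Gsta3 and Gstm1 may be shared with close relatives. Of 18 genes of protein folding in the endoplasmic reticulum none rose and 4 fell, or 8 fell with values rescaled to the same total, while 1 rose and 7 fell without the 3 distant libraries, and 1 rose without PBS knockdown replicate 1 or 2. Sdf2l1 fell by 1.004 ± 0.13, Herpud1 by 0.68 ± 0.09, Edem1 by 0.51 ± 0.11 and Sel1l by 0.48 ± 0.09 (limma, adjusted p = 1.1e-05, 1.2e-05, 0.0012 and 4.5e-04), and the chaperone gene Hspa5 (0.07) was not called.

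Set beside the response of cells with the negative-control GapmeR, in which 5543 genes (25.4%) were called, 2742 higher and 2801 lower, the knockdown response shared most of its calls. Of the 2918 genes that rose in knockdown cells, 1847 also rose in control cells, which is 63.3% of the knockdown and 67.4% of the control list. Of the 3049 genes that fell, 1949 also fell in control cells, 63.9% of the knockdown and 69.6% of the control list. The 2 responses share no library. The log2 change of Nppb was 2.75 ± 0.13 in knockdown and 2.87 ± 0.13 in control cells, that of Acta1 2.25 ± 0.11 and 2.53 ± 0.11, and that of Myh7 -1.25 ± 0.12 and -1.33 ± 0.12. The differences, knockdown minus control, were -0.12 ± 0.18, -0.28 ± 0.15 and 0.09 ± 0.17 (limma, adjusted p = 0.88, 0.58 and 0.90), and none of the 8 readout genes was called different. A p that misses the threshold does not show that the responses were the same.

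**Figure D4:**
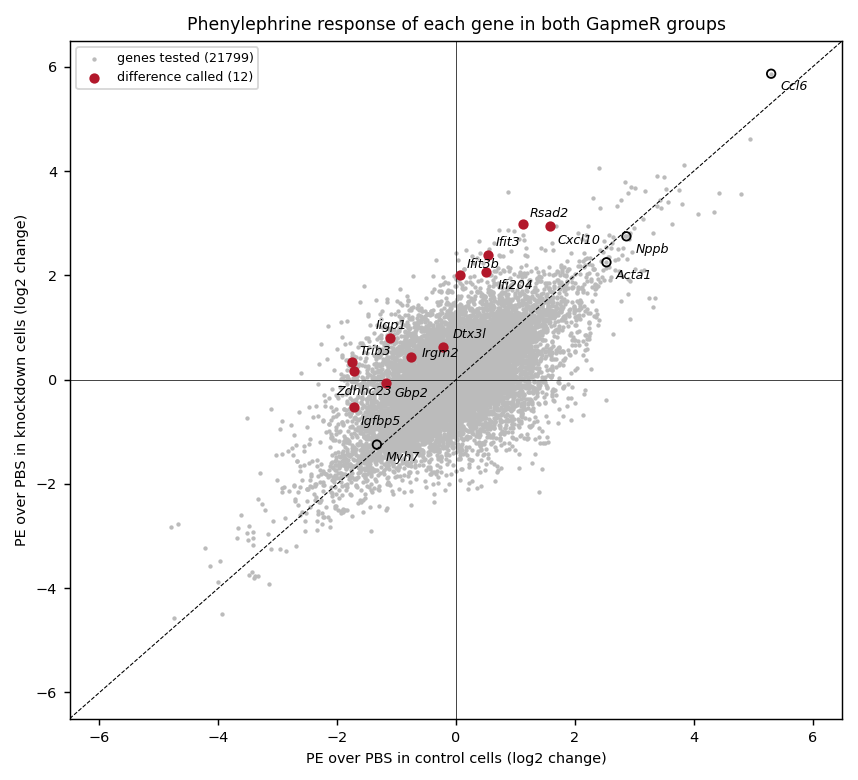
Log2 change of PE over PBS for each tested gene, in knockdown cells (y axis) against control cells (x axis), with the line of equal response dashed. Labelled red points are the 12 genes whose responses were called different by limma, all of which lie above the line.

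The difference between the responses was called for 12 genes (0.0550% of those tested), all with the higher log2 change in knockdown cells, and for none with the lower one. Knockdown and control cells received different GapmeRs. Loss of lincRNA-p21 and any other effect of its GapmeR therefore cannot be told apart in this difference. At an unadjusted p of 0.05 limma gave 986 genes with the higher and 1157 with the lower change in knockdown cells. DESeq2 on the recovered reads called 62 in each direction, edgeR called 13 and 0, and leaving out the 3 distant libraries gave 74 and 69 with limma. All 12 genes were among the 124 that DESeq2 called and the 143 called without the 3 distant libraries. The count was 6, 3, 5, 4, 5 and 7 without PBS control replicate 1, PBS control replicate 3, PBS knockdown replicate 3, PE control replicate 2, PE control replicate 3 and PE knockdown replicate 2, and 20, 21 and 22 without PBS knockdown replicate 1, PBS knockdown replicate 2 and PE control replicate 1. Trib3, Ifit3 and Ifit3b kept their call in every setting tried.

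Interferon-stimulated genes were the list with most called differences, 4 of the 12. These genes are induced by type I interferon through factors such as STAT2 and IRF9, which bind the interferon-stimulated response element. Of 24 tested, 20 rose with PE in knockdown cells and none fell, with a median of 1.30. In control cells 7 rose and 1 fell, with a median of 0.37, and the genes with a called difference were Ifit3, Ifit3b, Rsad2 and Cxcl10. Rsad2 (ENSMUSG00000020641.17, chromosome 12 from 26442746 to 26456452 on the minus strand), which encodes the antiviral enzyme viperin, had 329, 382 and 336 normalised reads in PE knockdown and 48.96, 48.8 and 33.9 in PBS knockdown libraries, and 118, 64.8 and 93.4 in PE control and 40.8, 31.7 and 51.9 in PBS control libraries. The PE knockdown libraries were above all the others. Its log2 change was 2.98 ± 0.23 in knockdown and 1.12 ± 0.23 in control cells, a difference of 1.86 ± 0.32 (limma, adjusted p = 0.026). That difference lost its call without PBS control replicate 1 or 3, PBS knockdown replicate 3 or PE control replicate 2 or 3. Leaving out PE knockdown replicate 2 or 3 ended the call too (limma, adjusted p = 0.15 and 0.087).

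Ifit3 (ENSMUSG00000074896.4, chromosome 19 from 34583531 to 34588731 on the plus strand), an antiviral protein with tetratricopeptide repeats, had 633, 545 and 544 in PE knockdown and 136, 102 and 90.8 in PBS knockdown libraries, and 238, 138 and 151 in PE control and 125, 123 and 104 in PBS control libraries. The difference between its responses was 1.85 ± 0.26 (limma, adjusted p = 0.0083). Its neighbour Ifit3b gave 1.94 ± 0.26 (limma, adjusted p = 0.0067), but the 2 genes are near-identical and counting may have split their reads. Cxcl10, a chemokine that attracts T cells, had 559, 626 and 468 in PE knockdown and 72.5, 68.7 and 67.8 in PBS knockdown libraries, and 179, 158 and 175 in PE control and 49.3, 52.1 and 68.9 in PBS control libraries. Its responses differed by 1.37 ± 0.22 (limma, adjusted p = 0.020), and it overlaps Art3 on the other strand, which was at least as high. Other members that rose in knockdown cells were Oas3 (2.08), Oas2 (2.08), Oasl1 (1.88), Ifit1 (1.87), Mx2 (1.77), Isg15 (1.66) and Usp18 (1.60). Stat2 (-0.03), Dhx58 (0.54) and Bst2 (0.58) were not called. Leukocyte markers, which rose in knockdown cells as given above, had summed values of 4056 to 4696 in PE control against 2998 to 3839.6 in PBS control libraries, and 8 of 15 rose there. Their part in the interferon genes was not tested.

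The promoters of Rsad2, Ifit3 and Cxcl10 are shown since the difference was called for each. Capitals mark the letters of the interferon-stimulated response element, searched on both strands as GAAA, any 2 bases, then GAAA, in stretches of 300 bases cut as above from RefSeq on GRCm38.p6. They lie at chr12:26456403-26456702 on the minus strand, chr19:34583279-34583578 on the plus strand and chr5:92348840-92349139 on the minus strand.
Rsad2: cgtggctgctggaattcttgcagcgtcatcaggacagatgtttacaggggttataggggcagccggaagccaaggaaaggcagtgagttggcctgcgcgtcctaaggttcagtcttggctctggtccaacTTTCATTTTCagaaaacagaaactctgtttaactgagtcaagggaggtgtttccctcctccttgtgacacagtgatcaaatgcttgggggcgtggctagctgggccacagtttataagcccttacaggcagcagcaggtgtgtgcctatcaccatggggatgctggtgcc
Ifit3: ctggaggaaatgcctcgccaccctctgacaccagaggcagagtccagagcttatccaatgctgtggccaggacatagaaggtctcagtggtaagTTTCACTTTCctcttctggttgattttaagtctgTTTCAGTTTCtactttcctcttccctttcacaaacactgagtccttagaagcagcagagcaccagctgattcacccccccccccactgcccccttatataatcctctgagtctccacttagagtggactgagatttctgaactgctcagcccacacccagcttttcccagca
Cxcl10: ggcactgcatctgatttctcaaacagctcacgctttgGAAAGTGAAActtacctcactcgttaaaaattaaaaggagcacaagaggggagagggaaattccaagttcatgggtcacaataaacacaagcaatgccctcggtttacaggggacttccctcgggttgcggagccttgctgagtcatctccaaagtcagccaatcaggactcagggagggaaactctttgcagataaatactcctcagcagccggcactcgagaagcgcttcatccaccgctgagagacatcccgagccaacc
Rsad2 held 1 match, starting 120 bases before the start, Ifit3 held 2, at 156 and 122 bases, and Cxcl10 held 1, at 213 bases. Over all RefSeq promoters 3.44% held these letters, and of the 18 listed interferon genes with a RefSeq promoter, 12 did. The list is defined by induction through this element, so the share describes the list and not the response to PE. Outside the capitals, each of the 3 stretches also held the AP-1 letters TGANTCA (N is any base), which stood in 7.81% of all promoters. They began 87, 56 and 74 bases before the start in Rsad2, Ifit3 and Cxcl10.

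Of 21 targets of ATF4, the transcription factor of the integrated stress response, 9 rose and 2 fell in knockdown cells (median 0.30), or 5 rose with values rescaled to the same total, while 2 rose and 7 fell in control cells (median -0.24). Whether the list as a whole differed between the responses was not tested. The difference was called for 1 of them, Trib3 (ENSMUSG00000032715.10, chromosome 2 from 152337422 to 152344032 on the minus strand), a pseudokinase that feeds back on ATF4. Trib3 had 822, 1108 and 974 normalised reads in PE knockdown and 721, 878 and 704 in PBS knockdown libraries, and 179.9, 164 and 156 in PE control and 591, 552 and 539 in PBS control libraries. Every knockdown library lay above every control library. With PE it fell by 1.75 ± 0.12 in control cells (limma, adjusted p = 2.9e-09), and in knockdown cells it was at 0.33 ± 0.12 without a call (limma, adjusted p = 0.051), a difference of 2.08 ± 0.17 (limma, adjusted p = 6.2e-06). In 7 other settings the change in knockdown cells was called higher. Atf4 itself rose by 0.72 ± 0.11 in knockdown cells and was at 0.21 ± 0.11 in control cells, and the amino acid transporter genes Slc3a2 and Slc7a11 rose by 0.81 ± 0.10 and 0.59 ± 0.13 in knockdown cells (limma, adjusted p = 8.0e-05, 3.9e-06 and 0.0016). The differences of these 3 genes were 0.51 ± 0.16, 0.43 ± 0.14 and 0.58 ± 0.18 and were not called (limma, adjusted p = 0.33, 0.35 and 0.33). Nupr1, a stress-induced nuclear protein, rose by 0.59 ± 0.17 (limma, adjusted p = 0.012) but not without PBS knockdown replicate 3 (limma, adjusted p = 0.076).

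**Figure D5:**
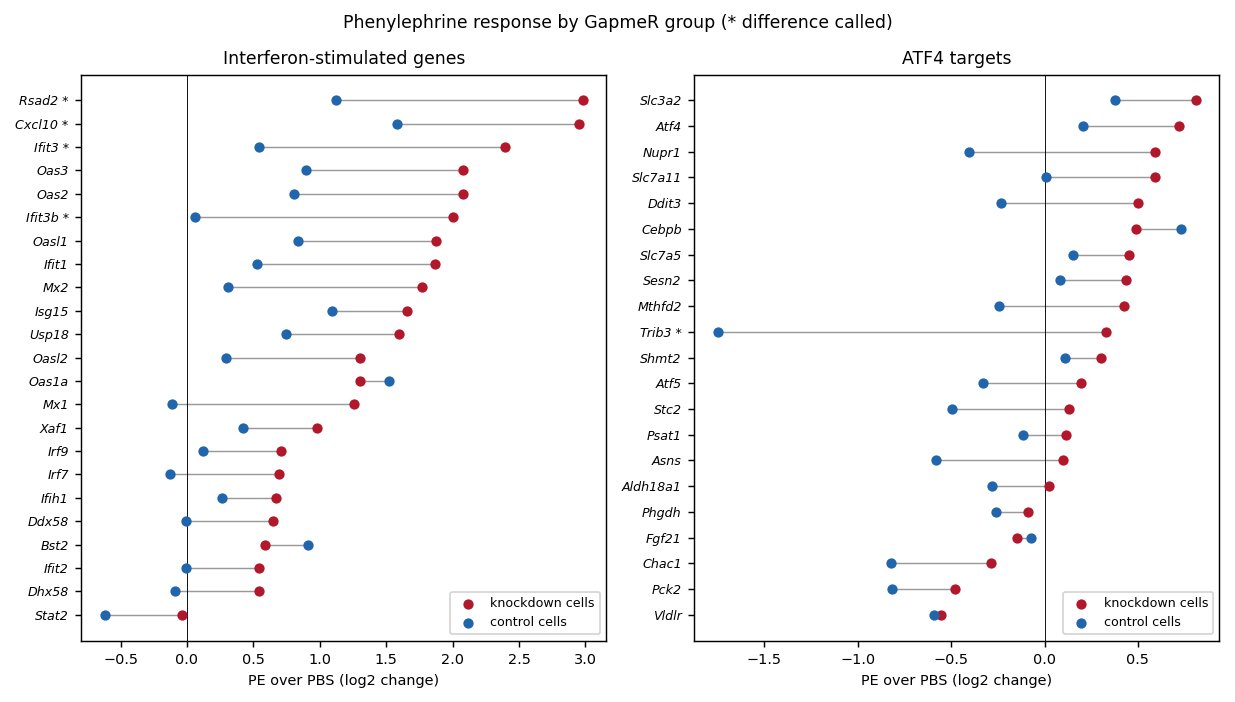
Log2 change with PE of 23 of the 24 tested interferon-stimulated genes (left) and each tested ATF4 target (right), as points for knockdown (red) and control cells (blue) joined by a line, with an asterisk where the difference was called. Rsad2, Ifit3 and Ifit3b are higher in knockdown than in control cells, and Trib3 is below 0 in control cells.

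The other genes with a called difference were of several kinds, some of them interferon-inducible but not on the list of interferon-stimulated genes. Iigp1, Irgm2 and Gbp2 are interferon-inducible GTPases that act against pathogens inside the cell. Iigp1 had 146, 142 and 117 in PE knockdown and 95.2, 57.8 and 81.6 in PBS knockdown libraries, and 38.8, 34.00 and 48.8 in PE control and 80.6, 82.8 and 100.0 in PBS control libraries. It rose by 0.80 ± 0.20 in knockdown cells and fell by 1.11 ± 0.20 in control cells (limma, adjusted p = 0.0058 and 4.0e-04), and the rise in knockdown cells was lost without the 3 distant libraries (0.54, limma adjusted p = 0.058). Irgm2 changed by 0.43 ± 0.15 and -0.76 ± 0.15 and Gbp2 by -0.06 ± 0.12 and -1.18 ± 0.12 in knockdown and control cells. The rise of Irgm2 in knockdown cells (limma, adjusted p = 0.037) was lost without PBS knockdown replicate 1 or 3 or PE knockdown replicate 1 or 2, with limma adjusted p between 0.098 and 0.14. Ifi204, a DNA-binding protein of the interferon-inducible family, and Dtx3l, a ubiquitin ligase of the DNA damage response, rose in knockdown cells by 2.05 ± 0.19 and 0.62 ± 0.10 (limma, adjusted p = 1.0e-07 and 6.6e-05).

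Zdhhc23, a palmitoyltransferase, had 94.2, 93.7 and 96.3 in PE knockdown and 86.1, 73.2 and 96.3 in PBS knockdown libraries, and 18.3, 23.4 and 17.4 in PE control and 63.6, 57.3 and 80.2 in PBS control libraries. It fell by 1.71 ± 0.20 in control cells and was at 0.16 ± 0.20 in knockdown cells (limma, adjusted p = 2.1e-06 and 0.61). Igfbp5, a binding protein of insulin-like growth factors, had 2198, 1348 and 1495 in PE knockdown and 1995, 2754 and 2375 in PBS knockdown libraries, and 761, 685 and 769.6 in PE control and 2365, 2558 and 2384 in PBS control libraries. Its fall of 0.52 ± 0.15 in knockdown cells (limma, adjusted p = 0.011) rests on overlapping libraries and was lost without PE knockdown replicate 2 or 3 (limma, adjusted p = 0.084 and 0.054), and its fall in control cells was 1.72 ± 0.15 (limma, adjusted p = 3.6e-08).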

How the data were processed

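RNA with a polyadenylated tail was sequenced as paired-end reads from 12 libraries, 3 in each of 4 groups, and libraries were grouped by their labels. The submitters' processing notes name STAR, SAMtools and featureCounts, without versions, and the GRCm38.p6 build. The authors deposited 1 table of signal, which holds counts divided by 1 size factor per library (0.921 to 1.11). Dividing by the step of each column gave whole numbers for 100% of values (tolerance 0.001), and these recovered reads served for count tests. Gene IDs were matched without version to GENCODE M21, which named 52083 of 55416 genes, and the rest held 0.200% of the signal.

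Genes with a mean of at least 1 were tested on log2(value + 1) with limma 3.58.1 (R 4.3.3), with a trended prior and 4 group means over all 12 libraries, two-sided, with Benjamini-Hochberg adjustment over all 21799 genes and a threshold of 0.05. The contrasts were PE against PBS in knockdown cells, the same in control cells, and their difference. A fold change on this scale understates that of low genes, and 3 libraries per group limit the precision. The procedure was tested on simulated data.

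Members and gene lists were chosen with earlier results of these data known. Named genes are 8 readouts, the 12 highest and 12 lowest changes among called genes that average 1 or more in log2 CPM over the 6 knockdown libraries and show no overlap between PE and PBS, the 4 called members of each list with the largest change (2 of any where none was called), and the 10 highest and 10 lowest differences, all without predicted gene models. Other list members are given to complete their list and were chosen after their values were seen, and some list members and named genes are not reported here. Of 160 named genes, 29 overlap another tested gene, which for 8 is at least as high.

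Alternatives were a pseudocount of 0.1, no filter, a filter of 1 CPM in 3 libraries, edgeR 4.0.16 with TMM or the deposited size factors, DESeq2 1.42.0, values rescaled to equal totals, the 6 knockdown libraries alone, a replicate block, each library left out, and 3 distant libraries left out together. Replicate numbers were not treated as pairs. Promoters came from RefSeq on GRCm38.p6.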

Additional observations from a re-analysis of the deposited data

Results flagged for a closer look

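A gene stands here because the test of the difference itself called its PE response unlike in knockdown and control cells, and all 12 such genes responded more upward in knockdown cells (limma, Benjamini-Hochberg threshold of 0.05). Of these, 8 rose, 1 fell and 3 were not called in knockdown cells, while 3 rose, 6 fell and 3 were not called in control cells. The difference, knockdown minus control, on the log2 scale was 2.08 for Trib3, 1.94 for Ifit3b, 1.91 for Iigp1, 1.87 for Zdhhc23 and 1.86 for Rsad2. It was 1.85 for Ifit3, 1.55 for Ifi204, 1.37 for Cxcl10, 1.202 for Igfbp5, 1.19 for Irgm2, 1.12 for Gbp2 and 0.84 for Dtx3l. Trib3, Ifit3 and Ifit3b kept the call under every setting tried, and the other 9 lost it in at least 1 fit without a single library. Most of the 9 lost it in several such fits. Ifi204 lost the call when any 1 of the 3 PBS control or the 3 PE knockdown libraries was left out.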

How the results depend on the processing

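The PE response in knockdown cells held 5967 called genes, and the count lay between 4787 (the 6 knockdown libraries alone) and 6412 (equal totals) in all settings, from 4906 to 6129 with single libraries left out. The PE response in control cells held 5543, from 4263 to 6552 with single libraries left out and 7421 without the 3 distant libraries. The difference between the PE responses, with 12 genes, was the count that moved most. It ranged from 3 to 22 with single libraries left out, and was 124 with DESeq2 and 143 without the 3 distant libraries. The cause was not tested. Of 154 named genes called in knockdown cells, 141 were called in every setting in which they were tested, and none reversed its sign. Of the 12 called differences, 3 were called in every setting and none reversed. Trib3, not called in knockdown cells, was called in 7 settings. List medians changed sign in 22 of the settings of 9 lists, all of them near 0. With the replicate block 5708, 5171 and 12 genes were called for knockdown cells, control cells and the difference. Residuals of libraries with the same number correlated between -0.435 and 0.409, so the numbers were taken as names and not as pairs, and the block ended the call of Irgm2 in knockdown cells and the called differences of Irgm2 and Igfbp5. Where a group was left with 2 libraries, they were assumed to vary like the other groups. Intervals between libraries cover 3 samples each, and genes of a few reads, such as Trp53cor1, Mmp10 and Epyc, are known only roughly.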

Other observations

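Some genes were called in opposite directions in the 2 responses, and they were picked after their values were seen. Higher with PE in knockdown cells and lower in control cells were 7 genes, Soat2, Iigp1, Serpina3f, mt-Tp, Igtp, Trim30d and Irgm2, of which Iigp1 and Irgm2 lost the call in knockdown cells in other settings, as given above. Lower in knockdown and higher in control cells were 2 genes, Abcb9 and Gpr39. Soat2, which esterifies cholesterol, had 54.6, 50.8 and 41.7 normalised reads in PE knockdown and 16.3, 30.7 and 24.8 in PBS knockdown libraries, and 7.54, 10.6 and 8.68 in PE control and 21.8, 35.8 and 16.99 in PBS control libraries. Its log2 change was 1.04 ± 0.31 in knockdown and -1.32 ± 0.31 in control cells (limma, adjusted p = 0.016 and 0.0032). The difference of 2.36 ± 0.44 missed the threshold (limma, adjusted p = 0.055). Igtp, an interferon-inducible GTPase of the same family as Irgm2, had 286, 354 and 309 in PE knockdown and 227, 204 and 172 in PBS knockdown libraries, and 107, 83.9 and 92.3 in PE control and 126, 114 and 165 in PBS control libraries. Its difference was 1.15 ± 0.23 (limma, adjusted p = 0.084). Gpr39, a zinc-sensing receptor, had 63.2, 80.7 and 94.3 in PE knockdown and 114, 108 and 111 in PBS knockdown libraries, and 192, 202 and 214 in PE control and 138, 125 and 152 in PBS control libraries, a difference of -1.05 ± 0.22 (limma, adjusted p = 0.10). Of the 9 genes, the difference itself was called for Iigp1 and Irgm2 only.

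Motif letters were counted in the RefSeq promoters of 6 more lists as a description. The letters TGATGNAA of the C/EBP-ATF element stood in 3.97% of all promoters and in 7 of 20 of ATF4 targets. The letters of the AP-1 element, TGANTCA, stood in 7.81% of all promoters, in 4 of 14 promoters of matricellular and protease genes and in 3 of 12 promoters of NF-kB targets and cytokines. A CArG box stood in 1.63% of all promoters, in 1 of 15 promoters of immediate early genes and in 0 of 8 of smooth muscle markers. A sterol element, CACNCCAC, stood in 6.24% of all promoters and in 2 of 15 of cholesterol genes. No match says only that these letters are not in the 300 bases searched.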
